A study of Rattus norvegicus with 6 samples.

Results

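Nuclear receptors are transcription factors whose activity is set by small lipophilic ligands such as steroids, thyroid hormone, retinoids, fatty acids, oxysterols, bile acids and drugs. They bind short DNA repeats as monomers, homodimers or heterodimers with a retinoid X receptor (RXR), and recruit coactivators or corepressors. In liver they set the expression of enzymes of drug, lipid, bile acid and glucose metabolism. The list examined here held 40 rat genes of this family. They were chosen by name, and their probes were all non-control array probes whose RefSeq accession belongs to one of them. Probes were found for 35 of the 40, 70 probes of 61657 in all, among 15284 genes that could be named on the array. No probe was matched to Rarb, Hnf4g, Nr6a1, Rora or Rorb, whose signal was therefore not analysed here.

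The samples were livers of 6 male Sprague-Dawley (Crl:CD(SD)) rats, an outbred stock, 9 weeks old, each measured on 1 array of its own with a single dye. In 3 rats death followed isoflurane anaesthesia, and in 3 it followed anaesthesia with CO2/O2. All 6 had received corn oil at 5 mL/kg/day, which is commonly a vehicle. The design text gives 3 days of corn oil and the treatment protocol gives 9 weeks. No rat was killed without an anaesthetic, so each value compares both agents with each other, not with an untreated liver. All values below are log2 signals relative to the array's own 75th percentile, so 0 is that percentile. Between 53.4% and 62.3% of non-control probes were well above background on an array, and none was saturated. All 6 arrays lay on 1 slide. Row 1 of the slide held isoflurane replicate 1 and the 3 CO2/O2 arrays, and row 2 held isoflurane replicates 2 and 3, so the place on the slide and the group can largely not be told apart. The label liver was checked against 10 hepatocyte markers, such as Alb and Apoa1, and all were above background. Their summed linear signal, in multiples of the 75th percentile, was 3488 to 3730.4 on the isoflurane arrays and 3543 to 3730.5 on the CO2/O2 arrays.

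The upstream sequences of 3 receptors are shown because of their values below. Ppara and Nr1i3 had the largest positive differences between the groups, and the Nr5a2 window held the most copies of a receptor half-site. Each is the RefSeq GRCr8 window of 300 bases, 250 before and 50 after the annotated start, written 5′ to 3′ on the gene's own strand. The Ppara window is chr7:118712357-118712656 on the plus strand, the Nr1i3 window is chr13:86165170-86165469 on the plus strand, and the Nr5a2 window is chr13:50984889-50985188 on the minus strand. Capitals mark the half-site AGGTCA, the 6 bases that many nuclear receptors contact, searched on both strands.
Ppara: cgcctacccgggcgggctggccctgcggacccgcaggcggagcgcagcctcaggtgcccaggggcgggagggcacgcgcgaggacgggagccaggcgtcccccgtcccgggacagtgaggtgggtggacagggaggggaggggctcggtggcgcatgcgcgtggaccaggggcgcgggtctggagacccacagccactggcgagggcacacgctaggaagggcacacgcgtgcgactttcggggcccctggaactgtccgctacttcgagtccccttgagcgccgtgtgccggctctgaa
Nr1i3: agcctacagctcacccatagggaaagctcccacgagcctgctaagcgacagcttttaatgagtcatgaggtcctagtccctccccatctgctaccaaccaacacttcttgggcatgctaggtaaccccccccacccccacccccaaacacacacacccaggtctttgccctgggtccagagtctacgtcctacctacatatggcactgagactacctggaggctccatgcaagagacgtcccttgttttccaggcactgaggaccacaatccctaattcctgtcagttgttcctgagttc
Nr5a2: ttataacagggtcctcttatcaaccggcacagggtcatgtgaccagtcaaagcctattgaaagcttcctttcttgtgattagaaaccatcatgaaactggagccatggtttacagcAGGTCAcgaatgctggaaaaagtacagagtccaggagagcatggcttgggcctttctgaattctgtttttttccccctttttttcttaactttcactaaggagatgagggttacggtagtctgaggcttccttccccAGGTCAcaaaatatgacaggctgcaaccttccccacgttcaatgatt

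RefSeq gave 43 windows for 35 of the 40 receptors, which are not the same 35 as those with a probe. Of these windows 4 (9.30%) held the half-site, against 5415 of 33469 windows of the same length over all genes (16.2%). The 4 belonged to Nr5a2, Rarg, Esrrg and Nr0b1. Nr5a2 held it at window positions 117 and 254, and 1.81% of all windows held at least 2 copies. The Ppara and Nr1i3 windows held none. A match is only a string of letters in this window and says nothing of which factor binds there.

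Of the 35 receptors with a probe, 25 (71.4%) were well above background on all 6 arrays, against 65.7% of the 15284 named genes. Thrb and Esr1 were above background on all 3 CO2/O2 arrays and on 2 of 3 isoflurane arrays. These 27 receptors (77.1%, against 69.4% of named genes) could be tested between the groups, and a gene with several probes is represented by the tested probe that was brightest over all arrays. Vdr, Nr4a3, Esrrb, Esrrg and Nr0b1 were above background on some arrays only. Esr2, Pgr and Nr5a1 were at background on all 6 arrays, 3 of 35 receptors (8.57%), against 21.8% of named genes. Esr2 had 4 probes, all of them dim. In a bulk liver sample, fewer cells of a type and less RNA per cell cannot be told apart.

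Signal strength depends on the probe as well as on the transcript, so the following percentiles place each probe among all non-control probes of its array and are not an order of transcript amounts. Even where all probes of a receptor were above background on all arrays, they were up to 4.10 log2 units apart, as for Nr3c1. The xenobiotic sensor probes were bright: Nr1i2, the pregnane X receptor (PXR), lay between the 97.0 and 97.9 percentiles over the 6 arrays. Nr1i3, the constitutive androstane receptor (CAR), lay between 90.5 and 94.0. Among the lipid sensors, Nr1h3, the liver X receptor alpha that senses oxysterols, lay between 96.3 and 96.8. Nr1h2, the other liver X receptor isotype, lay between 90.3 and 90.9. Ppara, the fatty acid receptor that drives fat oxidation in fasting, lay between 80.2 and 86.0, while Ppard lay between 48.4 and 52.6. Rxra, the main RXR isotype of liver, lay between 73.3 and 74.6. Rxrg, an RXR isotype better known from muscle and brain, lay between 92.6 and 94.0. Probe sequences were not used here, so whether the Rxrg probes also bind other transcripts was not tested, and this holds for their differences too. Of the steroid receptors, the glucocorticoid receptor Nr3c1 lay between 84.7 and 86.9 and the oestrogen receptor Esr1 between 41.3 and 52.5. Of the orphan receptors, Nr2f6 lay between 94.7 and 95.6, Esrra, a regulator of mitochondrial genes, between 91.5 and 92.8, and Hnf4a, a factor that defines the hepatocyte, between 72.1 and 77.5. Of the probes given here, those of Esr1 fell short of the background limit on 1 array, and the others exceeded it on all 6.

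**Figure D1:**
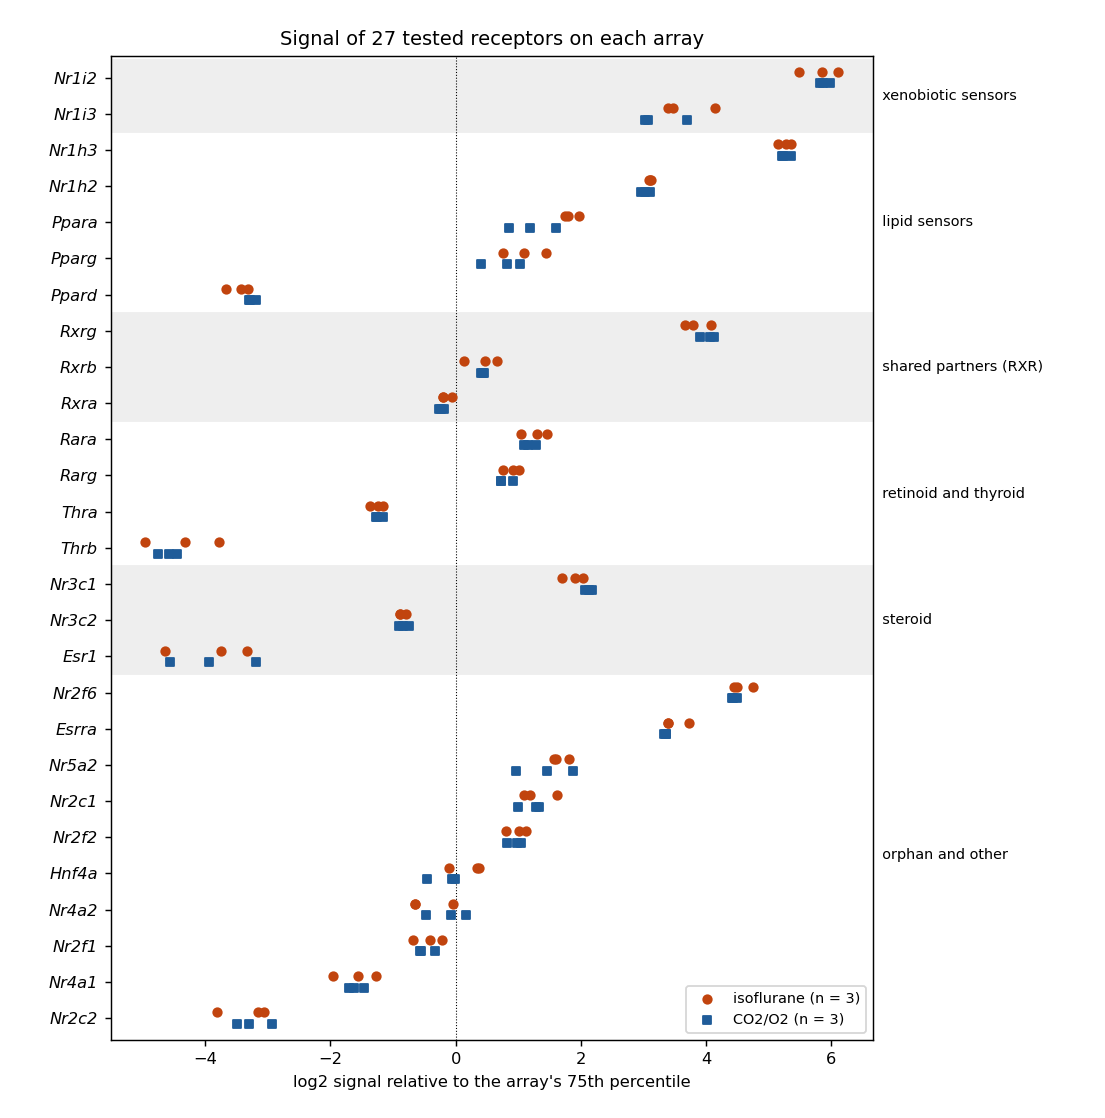
Log2 signal relative to the array's 75th percentile (x axis) of the 27 tested receptors (y axis), grouped by role, with 1 point per rat for isoflurane (circles, upper) and CO2/O2 (squares, lower), n = 3 each. Ppara, Esrra, Nr3c1 and Ppard are the receptors whose points do not overlap between groups, and the points of Esr1 and Thrb are the most scattered.

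No receptor passed an adjusted p of 0.05 between isoflurane and CO2/O2 livers in limma, and 0% of the 10609 named genes tested did. The smallest adjusted p among receptors was 0.597, and 0.156 among all named genes. The difference was positive for 15 receptors and negative for 12, and 47.1% of all genes tested had a positive one. At an unadjusted p of 0.05 there was 1 receptor, Ppara (3.70%), against 7.58% of all genes. The 3 isoflurane values did not overlap the 3 CO2/O2 values for 4 receptors (14.8%), against 14.2% of all genes, so this share was near the background. Ppara and Esrra were the higher ones and Nr3c1 and Ppard the lower ones. The median difference was 0.05 over the receptors and -0.01 over all genes. The receptors' differences lay between -0.32 and 0.63, none reached 2-fold, and 18 of 27 were smaller than 0.2 in size. The 95% confidence interval stayed within 2-fold in both directions for 24 of 27 receptors, with a median half-width of 0.34. For Ppara, Nr1i3 and Esr1 the interval reached beyond 2-fold.

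**Figure D2:**
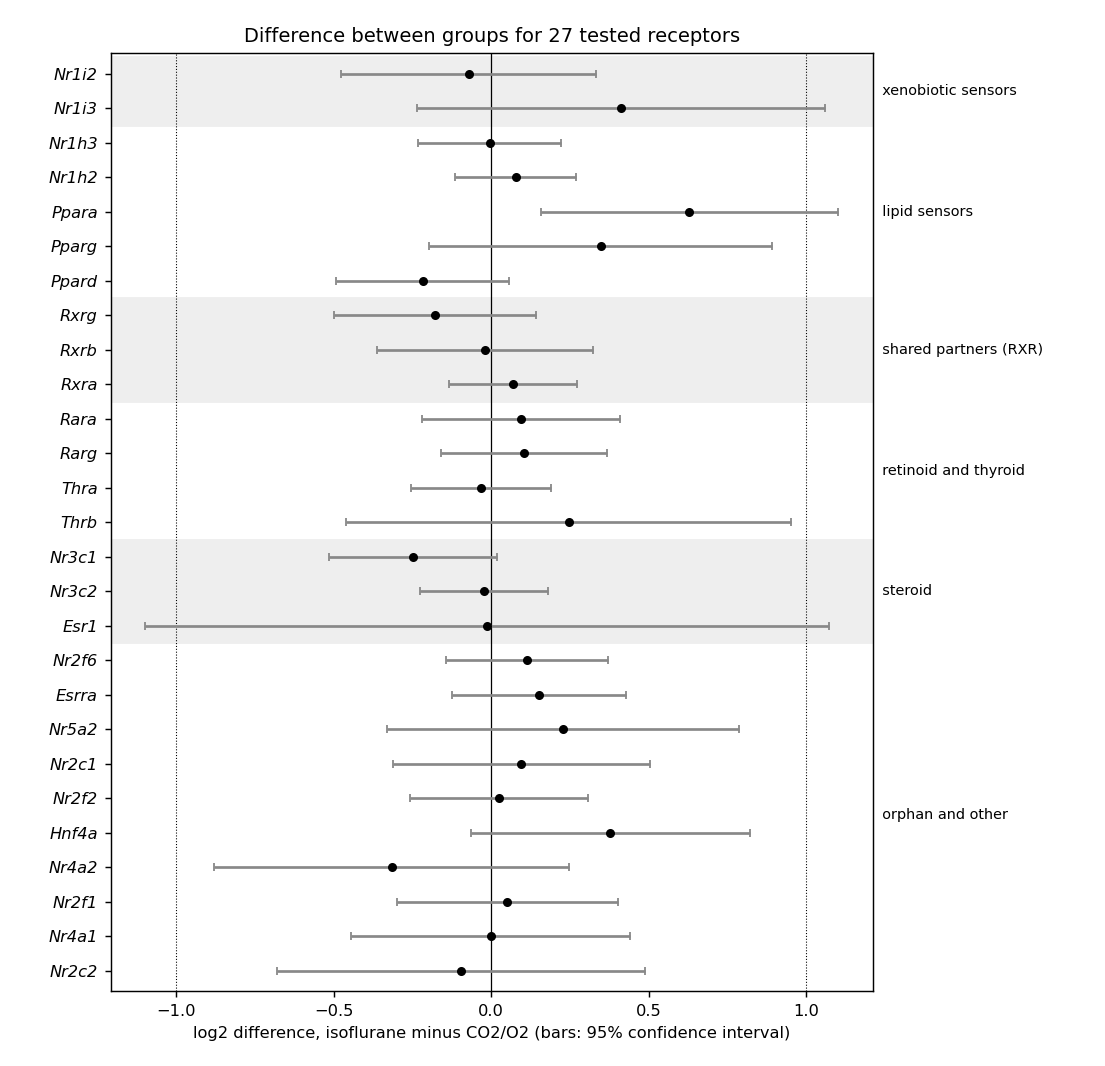
Isoflurane minus CO2/O2 difference in log2 signal (x axis) for each of the 27 tested receptors (y axis), with bars for the 95% confidence interval from limma and dotted lines at a 2-fold change in either direction. The bars of Ppara, Nr1i3 and Esr1 cross a dotted line, and the bar of Ppara is the one that does not cross 0.

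Ppara had the largest difference of all 27. Its log2 signals were 1.75, 1.80 and 1.97 in isoflurane livers, against 0.85, 1.18 and 1.60 in CO2/O2 livers. All 3 isoflurane values lay above the 3 CO2/O2 values, which were the more scattered. The means were 1.84 ± 0.12 and 1.21 ± 0.37 (SD, n = 3 each), a difference of 0.63 with a standard error of 0.20, or 1.55-fold. Its 95% interval was 0.16 to 1.10, the unadjusted p was 0.017 and limma's adjusted p was 0.597. The second Ppara probe gave 1.62, 1.72 and 1.88 in isoflurane livers, against 0.63, 1.10 and 1.53 in CO2/O2 livers, again without overlap. Both probes read the same 6 RNA samples, so they are not independent. The difference of the brighter probe was 0.82 without CO2/O2 replicate 3. It was 0.45 without CO2/O2 replicate 1, the lowest of the CO2/O2 values. A fit with slide row as a blocking factor leaves isoflurane replicate 1 alone to be set against the CO2/O2 arrays. In this row-blocked fit the difference was 0.54 with an unadjusted p of 0.12, and without isoflurane replicate 3 the unadjusted p was 0.053, so Ppara was not past 0.05 in either.

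Pparg, known for adipose tissue, had 0.76, 1.44 and 1.09 in isoflurane livers, against 0.82, 1.02 and 0.41 in CO2/O2 livers. The groups overlapped, and the difference was 0.35 with a standard error of 0.22 (limma's adjusted p = 0.757). In the row-blocked fit it was 0.01, and it was 0.18 without isoflurane replicate 2 or without CO2/O2 replicate 3. Without isoflurane replicate 1 it was 0.51. Ppard, the broadly expressed isotype, had -3.32, -3.67 and -3.42 in isoflurane livers, against -3.29, -3.29 and -3.19 in CO2/O2 livers. Its isoflurane values were all lower, by little: the difference was -0.22 with a standard error of 0.11 (adjusted p = 0.712). A second tested Ppard probe had a difference of 0.14, of the other sign. The first gave -0.07 in the row-blocked fit, -0.12 without isoflurane replicate 2 and -0.29 without isoflurane replicate 1. Nr1h3 had 5.28, 5.36 and 5.15 in isoflurane livers, against 5.35, 5.23 and 5.22 in CO2/O2 livers. These 6 values covered a narrow range in both groups, and the interval of the difference was -0.23 to 0.22. Nr1h2 had 3.11, 3.08 and 3.13 in isoflurane livers, against 2.96, 3.10 and 3.03 in CO2/O2 livers. Its groups overlapped, with an interval of -0.12 to 0.27.

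Both xenobiotic sensors were bright, and no probe of either passed an adjusted p of 0.05. Nr1i3 had 3.40, 3.48 and 4.15 in isoflurane livers, against 3.02, 3.07 and 3.70 in CO2/O2 livers. One rat of each group, replicate 3, stood above the others, and the groups overlapped. The means were 3.67 ± 0.41 and 3.26 ± 0.38 (SD, n = 3 each), a difference of 0.41 with a standard error of 0.27 and an interval of -0.24 to 1.06 (adjusted p = 0.758). The 3 dimmer Nr1i3 probes had differences of 0.59, 0.65 and 0.74, with unadjusted p of 0.064, 0.036 and 0.025 and adjusted p of 0.673, 0.644 and 0.615. The intervals of the last 2, 0.06 to 1.25 and 0.13 to 1.34, did not include 0. All 4 probes were positive. The difference of the brightest probe was 0.18 without isoflurane replicate 3, and 0.13 in the row-blocked fit. It was 0.63 without CO2/O2 replicate 3 and 0.55 without isoflurane replicate 1. Nr1i2 had 5.85, 5.48 and 6.11 in isoflurane livers, against 5.81, 5.98 and 5.87 in CO2/O2 livers. The isoflurane values enclosed the CO2/O2 values, and the difference was -0.07 with an interval of -0.48 to 0.33. It was 0.09, of the other sign, without isoflurane replicate 2.

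The RXR isotypes form heterodimers with most of the lipid, retinoid, thyroid and xenobiotic receptors. Rxra had -0.06, -0.21 and -0.20 in isoflurane livers, against -0.18, -0.23 and -0.27 in CO2/O2 livers. The groups overlapped within a narrow range, and the interval of the difference was -0.13 to 0.27. Rxrg had 4.08, 3.80 and 3.67 in isoflurane livers, against 4.12, 4.07 and 3.90 in CO2/O2 livers. The groups overlapped, the difference was -0.18 with a standard error of 0.13 (adjusted p = 0.787), and the other 2 Rxrg probes gave -0.29 and -0.34. All 3 were negative. The brightest gave 0.05 in the row-blocked fit, -0.09 without isoflurane replicate 3 and -0.29 without isoflurane replicate 1. Rxrb had a difference of -0.02 with a standard error of 0.14.

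Of the retinoic acid receptors, Rara had a difference of 0.09 and Rarg of 0.10, with standard errors of 0.13 and 0.11. Thra, the thyroid hormone receptor isotype of heart and skeletal muscle, had a difference of -0.03 with a standard error of 0.09. Thrb, the isotype through which thyroid hormone acts in liver, had -4.32, -4.96 and -3.77 in isoflurane livers, against -4.58, -4.46 and -4.76 in CO2/O2 livers. Its isoflurane values lay on both sides of the CO2/O2 values, so the difference of 0.25 with a standard error of 0.29 was smaller than the spread. Without isoflurane replicate 3 it was -0.04. Vdr, the vitamin D receptor, was above background on 1 isoflurane array and 2 CO2/O2 arrays and was not tested.

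Nr3c1, the glucocorticoid receptor, had 2.03, 1.91 and 1.69 in isoflurane livers, against 2.07, 2.13 and 2.18 in CO2/O2 livers. All 3 isoflurane values lay below the CO2/O2 values, isoflurane replicate 1 by the least. The means were 1.88 ± 0.17 and 2.13 ± 0.06 (SD, n = 3 each), a difference of -0.25 with a standard error of 0.11 and an interval of -0.52 to 0.02 (adjusted p = 0.672). Its other 2 probes gave -0.20 and -0.10, and the brightest gave -0.09 in the row-blocked fit and -0.16 without isoflurane replicate 3. Over all settings tried the Nr3c1 difference lay between -0.33 and -0.09. Nr3c2, the mineralocorticoid receptor, had a difference of -0.02 with a standard error of 0.08, and its other 2 probes were below background on all arrays. Esr1, the main oestrogen receptor of liver, had -3.33, -3.75 and -4.64 in isoflurane livers, against -3.93, -4.56 and -3.19 in CO2/O2 livers. Both groups were equally scattered, with SDs of 0.67 and 0.69, and the difference of -0.01 had an interval of -1.10 to 1.07. The lowest isoflurane value, of replicate 3, was the one below that array's background limit.

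Hnf4a had 0.35, 0.38 and -0.10 in isoflurane livers, against -0.45, -0.00 and -0.06 in CO2/O2 livers. Isoflurane replicates 1 and 2 lay above all CO2/O2 values and replicate 3 did not. The difference was 0.38 with a standard error of 0.18 and an interval of -0.06 to 0.82 (adjusted p = 0.691), and the other 2 Hnf4a probes gave 0.19 and 0.03. Without CO2/O2 replicate 1 the brightest probe gave 0.24. Over all settings tried the Hnf4a difference lay between 0.20 and 0.53. Nr5a2, the liver receptor homologue that regulates bile acid and cholesterol genes, had 1.60, 1.81 and 1.57 in isoflurane livers, against 0.97, 1.46 and 1.88 in CO2/O2 livers. The CO2/O2 values enclosed the isoflurane values, and all 3 Nr5a2 probes showed the same order of the CO2/O2 rats. The difference of 0.23 had a standard error of 0.23, and it was -0.0066 without CO2/O2 replicate 1. Nr4a2, an immediate early gene that needs no ligand, had -0.64, -0.04 and -0.65 in isoflurane livers, against -0.07, 0.17 and -0.48 in CO2/O2 livers. The groups overlapped, the difference was -0.32 with a standard error of 0.23 (adjusted p = 0.786), and the other 2 Nr4a2 probes gave -0.26 and -0.28. The difference of the brightest probe was -0.17 without CO2/O2 replicate 2 and -0.52 without isoflurane replicate 2, and it was close to the latter in the row-blocked fit. Its relative Nr4a1, which is also induced by acute stimuli, had a difference of -0.0016 with an interval of -0.45 to 0.44.

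**Figure D3:**
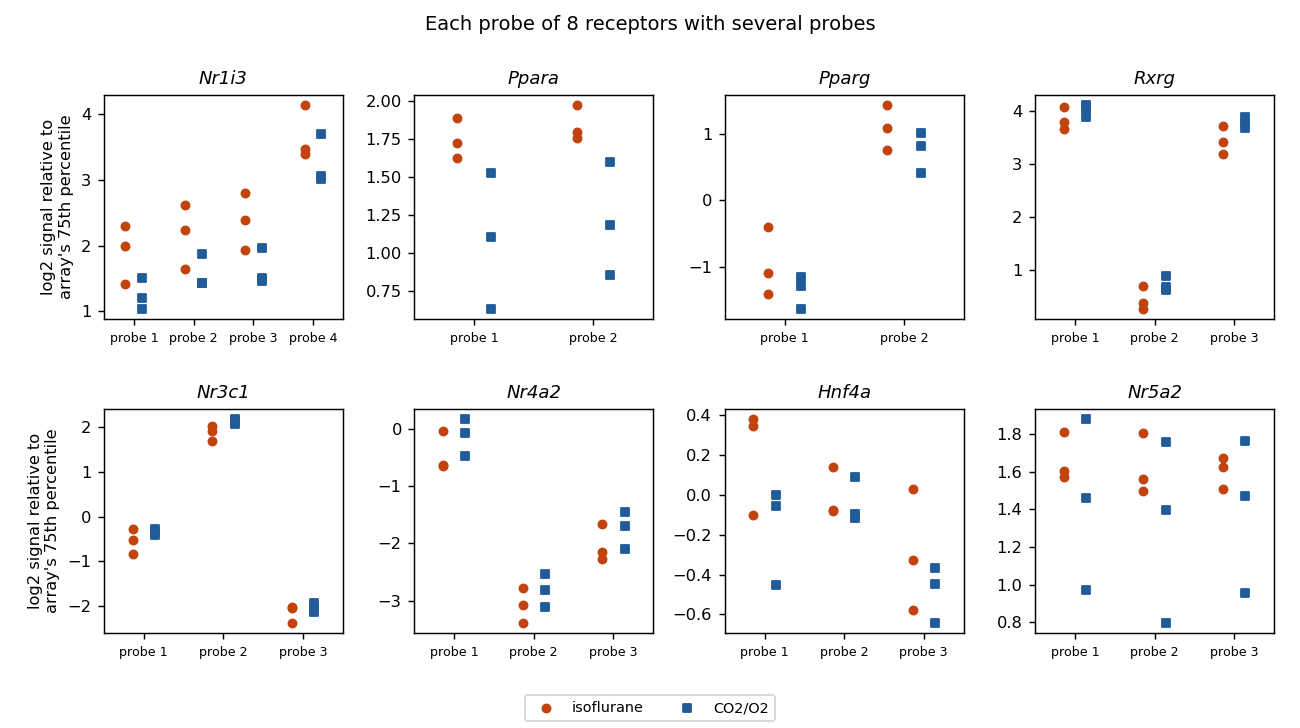
Log2 signal relative to the array's 75th percentile (y axis, a separate scale in each panel) of every probe of 8 receptors with several probes, with 1 point per rat for isoflurane (circles, left) and CO2/O2 (squares, right), n = 3 each. The CO2/O2 points of Ppara and Nr5a2 are scattered alike on every probe, and the 4 Nr1i3 probes all have a higher isoflurane mean.

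The remaining orphan receptors had small differences. Esrra had 3.39, 3.40 and 3.72 in isoflurane livers, against 3.36, 3.37 and 3.33 in CO2/O2 livers, without overlap. Its difference was 0.15 with a standard error of 0.11, and 0.04 without isoflurane replicate 3 or in the row-blocked fit. Over all settings tried it lay between 0.04 and 0.21. Nr2f6, Nr2f1 and Nr2f2, of the COUP transcription factor subfamily, had differences of 0.11, 0.05 and 0.02. Nr2c1 and Nr2c2, the testicular receptors, had differences of 0.10 and -0.10. Nr2c2 had -3.05, -3.81 and -3.15 in isoflurane livers, against -3.49, -3.29 and -2.94 in CO2/O2 livers, with overlap. Its second tested probe gave 0.14. Of 16 receptors with several tested probes, 13 had the same sign on all of them.

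The spread between rats of the same group was wider for the receptors than for all genes by median, with pooled within-group SDs of 0.187 and 0.147. Of 27 receptors, 16 lay above the genes' median. The widest were Esr1 at 0.678, Thrb at 0.433, Nr1i3 at 0.395 and Nr2c2 at 0.352, which lie at the 97.0, 91.9, 90.0 and 87.1 percentiles of all genes. Esr1, Thrb and Nr2c2 had dim probes and Nr1i3 a bright one. The narrowest were Nr1h2 at 0.0530 and Rxra at 0.0655, at the 5.75 and 10.5 percentiles. Within isoflurane livers the receptors' median SD was 0.210, against 0.116 within CO2/O2 livers, and the isoflurane SD was the larger one for 22 of 27 receptors. Over all genes the medians were 0.146 and 0.117, and the isoflurane SD was larger for 60.9%. Without isoflurane replicate 2 the receptors' pooled median was 0.137, and without isoflurane replicate 3 it was 0.152. Leaving out any other array gave 0.190 to 0.204. The medians over all genes without these arrays are not given here. Isoflurane replicate 2 had the lowest share of probes above background, 53.4%, and whether this bears on the spread was not tested.

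**Figure D4:**
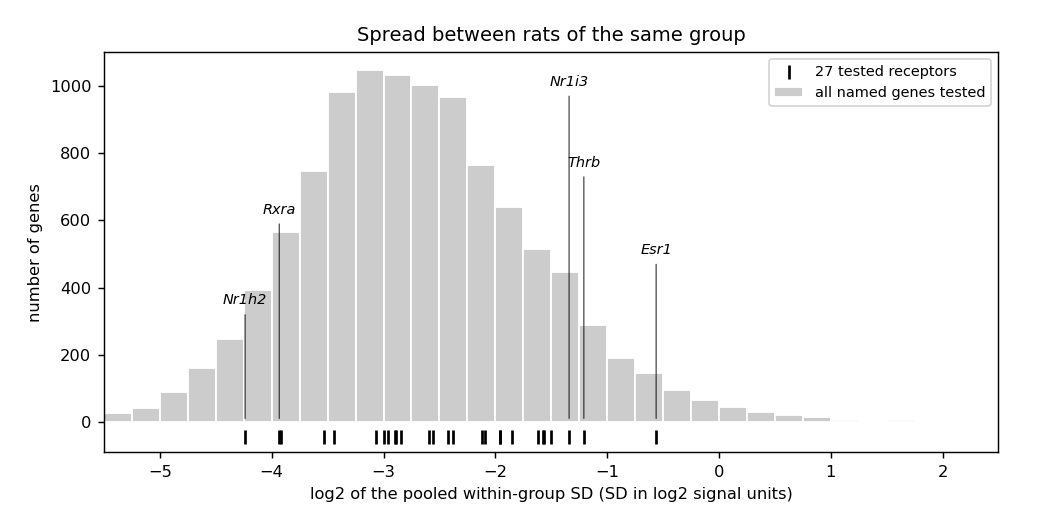
Pooled within-group SD of log2 signal, itself on a log2 scale (x axis), with the number of genes in each bin (y axis) for all 10609 named genes tested (bars) and a tick for each of the 27 tested receptors. Nr1h2 and Rxra sit at the narrow end and Nr1i3, Thrb and Esr1 at the wide end.

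For the dimmest probes the groups cannot be compared. The 13 receptor probes below background on all arrays belonged to 7 genes, among them all probes of Esr2, Pgr and Nr5a1. In 11 of these 13 the isoflurane mean was higher, with a median difference of 0.51. The lowest signal of any non-control probe was -7.33, -6.63 and -6.76 on the isoflurane arrays, against -7.01, -7.42 and -7.82 on the CO2/O2 arrays, a difference in means of 0.51 as well. No difference in expression is read from such probes. Nr0b1, which encodes the corepressor DAX-1, was above background on 2 of 3 CO2/O2 arrays and on no isoflurane array. Its signals were -4.84, -4.28 and -4.60 in isoflurane livers, against -4.40, -4.47 and -4.44 in CO2/O2 livers, with overlap. Nr4a3 and Esrrg were above background on 1 CO2/O2 array each. No fold can be given for Nr0b1, Nr4a3 or Esrrg.

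**Figure D5:**
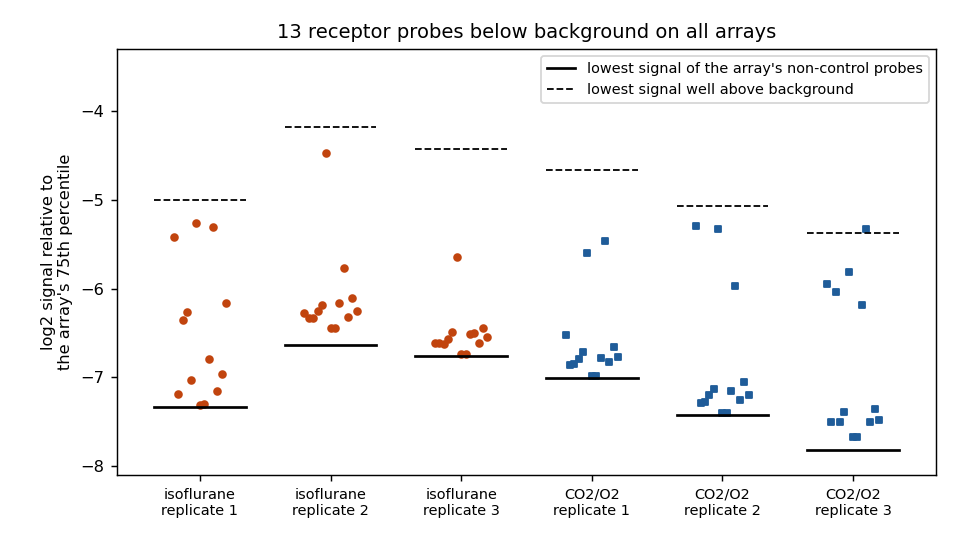
Log2 signal relative to the array's 75th percentile (y axis) of the 13 receptor probes below background on all arrays (points), for each of the 6 arrays (x axis), with the lowest signal of the array's non-control probes (solid line) and the lowest signal of a probe well above background (dashed line). Most points sit just above the solid line and move with it between arrays.

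Genes that work with these receptors, or are known targets of them, were read as lists chosen for those roles. In none of the lists below did a gene pass an adjusted p of 0.05 in limma. Of the coregulators, 11 of 19 were tested, 6 higher and 5 lower, with a median difference of 0.0012. Cited2, a regulator that binds the coactivator CBP, had 2.34, 2.01 and 1.68 in isoflurane livers, against 1.58, 1.63 and 1.86 in CO2/O2 livers. The groups overlapped, and the difference was 0.32 with a standard error of 0.18 (adjusted p = 0.730).

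Of 8 other nuclear receptors, 5 were tested, and the groups did not overlap for 1 of them, beside 14.2% of all genes. Nr1d1, the clock repressor REV-ERB alpha, had 1.89, 1.32 and 1.55 in isoflurane livers, against 0.93, 0.61 and 1.37 in CO2/O2 livers, with a difference of 0.62 (adjusted p = 0.644). Nr1d2, REV-ERB beta, had -2.35, -2.30 and -2.42 in isoflurane livers, against -2.85, -2.76 and -2.55 in CO2/O2 livers, without overlap and with a difference of 0.36 (adjusted p = 0.582). Nr1h4, the bile acid receptor FXR, had a difference of -0.36 with a standard error of 0.16, and its target Nr0b2 of -0.22 with a standard error of 0.36. Nr2e1 was not above background.

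Of the CAR and PXR targets, 18 of 18 were tested, 12 higher and 6 lower, with a median difference of 0.05. At an unadjusted p of 0.05 there were 4, of which 3 were higher and 1 lower, beside 7.58% of all genes. The groups did not overlap for 3 of the 18, beside 14.2% of all genes. Cyp2b2, a phenobarbital-inducible cytochrome P450, had 5.30, 5.75 and 5.67 in isoflurane livers, against 5.28, 5.09 and 4.86 in CO2/O2 livers. Sult2a1, a hydroxysteroid sulfotransferase, had 6.95, 6.61 and 6.13 in isoflurane livers, against 7.87, 7.65 and 7.02 in CO2/O2 livers. Neither gene overlapped between groups, and they differed in opposite directions, by 0.50 and -0.95 (adjusted p = 0.614 and 0.592). The other 2 of the 4, named after their values were seen, were Cyp3a18, a cytochrome P450 with a difference of 0.76 and no overlap, and Gstm1, a glutathione transferase with a difference of 0.35 and overlap (adjusted p = 0.634 and 0.651).

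Of the PPAR alpha targets, 20 of 20 were tested, 11 higher and 9 lower, with a median difference of 0.03. At an unadjusted p of 0.05 there were 0, beside 7.58% of all genes. Cyp4a2, a fatty acid hydroxylase, had 8.51, 7.75 and 8.21 in isoflurane livers, against 6.83, 7.81 and 7.90 in CO2/O2 livers. The groups overlapped, with CO2/O2 replicate 1 the lowest, and the difference was 0.64 with a standard error of 0.33 (adjusted p = 0.712). Of the LXR targets, 10 were tested, 3 higher and 7 lower, with a median of -0.16, and the sterol exporter Abcg1 had a difference of -0.20 and Mylip, which degrades the LDL receptor, of -0.15.

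Of the thyroid hormone receptor targets, 5 were tested, 2 higher and 3 lower, with a median of -0.02, and the deiodinase Dio1 had a difference of 0.44 and Gpd2 of -0.26. Of 8 retinoic acid receptor targets, 5 were higher and 3 lower, with a median of 0.05. The retinoic acid hydroxylase Cyp26a1 had -2.67, -3.12 and -3.17 in isoflurane livers, against -2.56, -2.52 and -2.14 in CO2/O2 livers, and the retinal reductase Dhrs3 had 4.47, 4.67 and 4.79 in isoflurane livers, against 4.33, 4.35 and 4.33 in CO2/O2 livers. Neither overlapped between groups, and their differences of -0.58 and 0.31 were opposite in sign (adjusted p = 0.597 and 0.612). These 2 were named for their large moderated t. They were the only 2 of the 8 without overlap, beside 14.2% of all genes. They were also the only 2 past limma's unadjusted p of 0.05, beside 7.58% of all genes.

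Of 15 glucocorticoid receptor targets, 3 were higher and 12 lower, with a median of -0.18. Zbtb16 was among the higher ones, with a difference of 2.59 and an adjusted p of 0.460, and Cebpd among the lower ones, with a difference of -0.53. Of 12 HNF4A targets, 4 were higher and 8 lower, with a median of -0.05, and Mttp had a difference of -0.17 and Cyp8b1 of -0.31.

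Markers of other liver cells were measured beside the receptors, since several receptors are expressed outside hepatocytes. Of 11 Kupffer cell markers, 0 were higher and 11 lower, with a median of -0.33, and 6 did not overlap, beside 14.2% of all genes without overlap and 47.1% with a positive difference. Their summed linear signal was 171 to 202 on isoflurane arrays and 212 to 259.9 on CO2/O2 arrays. Of 7 lymphocyte markers, 0 were higher and 7 lower, with a median of -0.32 and sums of 3.20 to 3.24 on isoflurane arrays and 3.38 to 3.90 on CO2/O2 arrays. Of 7 sinusoidal endothelial markers, 1 was higher and 6 lower (median -0.09, sums of 54.3 to 65.5 and 59.6 to 68.4). Of 10 stellate cell markers, 7 were higher and 3 lower (median 0.02, sums of 35.5 to 42.5 and 34.1 to 42.0). Of 6 cholangiocyte markers, 1 was higher and 5 lower (median -0.19, sums of 2.30 to 2.35 and 2.23 to 2.67). For the hepatocyte markers the count was 5 higher and 5 lower, with a median of -0.02. No marker passed an adjusted p of 0.05, none of those with a probe was below background on all arrays, and their part in the receptor differences was not tested.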

How the data were processed

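Liver RNA of 6 rats, 3 per group, was measured on 1 single-colour Agilent array each. Scans were quantified by Agilent Feature Extraction 10.7, per the submitters' processing notes. The deposited scanner files hold background-corrected intensity on a linear scale, per the file headers. The deposited value table holds a linear ratio: set against the scanner files, each column was the processed intensity divided by 1 number near that array's 75th percentile (912 to 998), with no centring of probes. Its column medians were 0.0917, 0.0900 and 0.0905 for isoflurane replicates 1 to 3 and 0.0864, 0.0881 and 0.0868 for CO2/O2 replicates 1 to 3.

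From the deposited intensity, log2 values were taken and the array's own 75th percentile (61657 non-control probes) subtracted. The 177 spots marked as outliers, none of them on a receptor probe, were left out. Testing required a probe to exceed background clearly on every array of 1 group or both. The linear model and its moderated statistics were fitted by limma 3.58.1 under R 4.3.3, using lmFit and eBayes, and p-values were adjusted by Benjamini-Hochberg over all 34637 probes tested, with a threshold of 0.05. The model was checked on simulated data. Tables and plots were made in Python 3.11.15 (pandas 2.3.3, numpy 2.4.6).

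Gene names came from unversioned accessions looked up in RefSeq genes of GRCr8: 27460 matched 1 gene, 0 matched several and 34197 were unmatched. Array positions on a genome are not used, since the arrays were annotated on another build. The number of arrays limits the precision. The members and lists were chosen with earlier results of these data known. Values on every array are given for the 8 receptors of largest moderated t, for 10 with known roles in liver, and for the 4 of largest and 2 of smallest within-group SD. Of each target list, the 2 genes of largest moderated t are named, apart from some that are not reported here. Esrra and further genes of the short list of other receptors were added after their values were seen.

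Same-numbered replicates of both groups were checked for pairing. The correlations of their deviations from the group means were 0.0213 to 0.114, not all above 0.1, so the numbers were not treated as pairs. Alternatives were other background corrections, scalings, filters, probe rules and moderation, the deposited value table, a replicate block, the slide row as a block and leaving out each array.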

Additional observations from a re-analysis of the deposited data

How the results depend on the processing

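No receptor passed an adjusted p of 0.05 under any setting tried with that rule. In the main fit 1 receptor, Ppara, was past an unadjusted p of 0.05. This count differed between settings. Without isoflurane replicate 3 Ppara was not past it (limma's unadjusted p = 0.053). Other receptors were past it in some settings, and the cases that follow are examples, not a full list. Ppard, like Ppara, was past it with quantile normalization (limma's unadjusted p = 0.048) and median centring (0.044), and Nr1i3 with a replicate block. Rxrg was past it without isoflurane replicate 1 (0.047). The settings gave 457 re-computed differences of the 27 receptors. Those from the mean of a gene's tested probes had no p-value, and of the others 0 passed an adjusted p of 0.05. Of the 457 differences 38 changed sign, in 15 receptors, and 12 receptors never changed sign. The median difference over receptors lay between -0.0077 (median centring) and 0.0881, and was -0.0066 without CO2/O2 replicate 1. The number above background was 27 to 33. The median SD was 0.137 to 0.225.

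Sign changes without a left-out array were Nr2c2 at 0.147 (normexp), 0.189 (slide row) and 0.0203 (mean of probes); Nr2f2 at -0.0344 and Nr2f1 at -0.0077 (median centring); Nr1h3 at 0.0039, Rxrb at 0.0570, Esr1 at 0.0908 and Nr4a1 at 0.0122 (normexp); and Nr1h3 at 0.0113 (quantile). With the slide row as a block, Esr1 was 0.562, Thra 0.0636, Rxrg 0.0520, Rxrb 0.0274, Nr1h3 0.0161, Nr2c1 -0.0131 and Nr4a1 0.322.

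Leaving out 1 array gave -0.345 to 0.355 for Esr1, -0.0516 to 0.0530 for Nr1h3, -0.221 to 0.0932 for Nr1i2, -0.0610 to 0.198 for Nr2c1, -0.239 to 0.139 for Nr2c2, -0.0605 to 0.175 for Nr2f1 and -0.0454 to 0.112 for Nr2f2. It gave -0.0571 to 0.0169 for Nr3c2, -0.163 to 0.178 for Nr4a1, -0.0066 to 0.449 for Nr5a2, -0.0016 to 0.208 for Rara, -0.137 to 0.123 for Rxrb, -0.0792 to 0.0257 for Thra and -0.0432 to 0.549 for Thrb. The cause of these sign changes was not tested.

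With a replicate block 0 receptors passed, the Ppara difference was 0.63 (unadjusted p = 0.0085, limma's adjusted p = 0.502) and that of Nr1i3 0.41 (unadjusted p = 0.0071, adjusted p = 0.499); of all probes, 3 passed without the block and 0 with it. Of 6 arrays, 5 correlated best with the array of their own number, a hint from the data and not from the design. Slide and scan blocks were not run, since there was 1 slide and 1 scan time. With 3 rats a group, dim probes such as Esr1 and Thrb, and a row block that rests on isoflurane replicate 1, precision is limited.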

Other observations

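Single probes stood apart on 1 array and were picked after their values were seen. The second Rarg probe was at -3.39, -3.29 and 0.60 in isoflurane livers, against -3.62, -3.29 and -3.16 in CO2/O2 livers. Isoflurane replicate 3 was the high one and its spot was not marked as an outlier; the brighter Rarg probe was at 1.01 in that rat and at 0.72 to 0.92 in the other 5. The dimmest of 3 Nr2f1 probes was at -2.67, -5.99 and -4.95 in isoflurane livers, against -4.56, -4.91 and -4.96 in CO2/O2 livers, with isoflurane replicate 1 the high one. Nr0b2, which encodes the small heterodimer partner, was at 6.44, 5.24 and 6.61 in isoflurane livers, against 6.11, 6.43 and 6.42 in CO2/O2 livers, with isoflurane replicate 2 the low one.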
